A study of Mus musculus with 18 samples.

Results

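Ccl3, Ccl4, Ccl5, Ccl6 and Ccl9 encode CC chemokines, small secreted proteins that draw leukocytes along a gradient, and are described here in mouse bone marrow-derived basophils. They were chosen by gene symbol as the CC chemokine genes Ccl3 and Ccl4 and their relatives, and are 5 of the 56413 genes in the table and 5 of the 14076 that were tested. The cells were grown from bone marrow for 7 days in interleukin-3 (0.3 ng/mL), given IgE against the hapten TNP on day 6 (1 µg/mL) and enriched for the surface protein CD49b on magnetic beads. Libraries labelled TTP-KO, for a knockout of tristetraprolin, and libraries labelled WT were each made after control OVA for 2 h, after TNP-OVA for 2 h and after TNP-OVA for 4 h, both proteins at 10 ng/mL. Each of these 6 groups holds 3 libraries of polyA RNA, 18 in all. No control OVA group was sampled at 4 h. The 4 h libraries are therefore compared with control OVA at 2 h, and there antigen and time in culture cannot be told apart. All groups carry the bound IgE, and only TNP-OVA carries the antigen that cross-links it. The knockout allele, and the sex and age of the mice, are not given in the sources used here, nor is it stated that libraries of a group came from separate mice or cultures, and p-values here cover only how much these libraries vary, whether biologically or technically. The question the design poses is how the lack of tristetraprolin alters expression in basophils stimulated through IgE.

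Ccl3 (MIP-1α) and Ccl4 (MIP-1β) are neighbouring genes that are switched on quickly in activated myeloid cells, mast cells and basophils. Ccl3 binds the receptor Ccr1, among others, and Ccl5 (RANTES), best known from T cells and platelets, binds receptors that include Ccr1 and Ccr3. Ccl6 and Ccl9 are rodent chemokines made constitutively by myeloid cells, and both act through Ccr1. Tristetraprolin, the product of Zfp36, binds AU-rich elements in the 3′ untranslated region (UTR) of messenger RNA, which are often built of the pentamer AUUUA, and recruits the deadenylation machinery that starts decay. Ccl3 mRNA has been described as one of its targets in mouse macrophages.

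The AU-rich sequences of the 5 genes differ in number and density, and they are shown first because tristetraprolin acts through such elements. The following windows of at most 30 bases come from the 3′ UTRs of GENCODE vM21 transcripts (genome build GRCm38, chromosome 11), written 5′ to 3′ as DNA of the sense strand. Capitals mark the pentamer ATTTA, and positions count from 1 at the first base of the 3′ UTR.
Ccl3, positions 149 to 178: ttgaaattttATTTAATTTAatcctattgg
Ccl3, positions 222 to 251: gtatttgtgactATTTAttctgaaagactt
Ccl4, positions 161 to 190: attatttctattATTTAtgttttagttata
Ccl6, positions 73 to 102: ttatagatATTTAaagcATTTAtccttctg
Ccl9, positions 2113 to 2142: gtccATTTAtacagtggatctcATTTActg

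The 3′ UTR of Ccl3 holds 5 ATTTA pentamers in 409 bases, all between positions 159 and 234. Among 2071 annotated 3′ UTRs of similar length (0.8 to 1.25 times), 45.7% hold any and 1.16% hold at least 5. Ccl4 holds 2 pentamers in 302 bases, a number reached by 12.4% of 1961 UTRs of similar length. Ccl5 holds none in 199 bases, and 24.8% of 1698 UTRs of similar length hold any. The longer UTRs of Ccl6 (943 bases, 4 pentamers) and Ccl9 (2465 bases, 5 pentamers) hold numbers that 17.4% and 46.8% of UTRs of their length reach. The heptamer TATTTAT, which overlaps a pentamer, occurs at 1 place in Ccl3 and at 1 in Ccl4, against 10% and 7.9% of UTRs of their length that hold any, and is not among the letters of the other 3 UTRs. The nonamer TTATTTATT was found in none of the 5. A match is a description of the letters and not evidence of binding.

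The 5 genes lie in one cluster on chromosome 11, in the RefSeq order Ccl5, Ccl9, Ccl6, Ccl3 and Ccl4, with a Ccl16 pseudogene, a ribosomal protein pseudogene and 2 long noncoding RNA genes among them. The RefSeq promoter table holds 3 of them, Ccl3, Ccl6 and Ccl9, which are given here as sequence alone. Whether the promoters bear on the genotype differences was not tested. Each stretch runs from 250 bases before the start of transcription to 50 bases from it, so that base 251 is the first transcribed base. Coordinates are those of GRCm38.p6, all 3 are on the minus strand and written 5′ to 3′, and capitals mark GGAAA on either strand, the core of sites for NFAT, a factor activated by calcium.
Ccl3, chr11:83649329-83649628: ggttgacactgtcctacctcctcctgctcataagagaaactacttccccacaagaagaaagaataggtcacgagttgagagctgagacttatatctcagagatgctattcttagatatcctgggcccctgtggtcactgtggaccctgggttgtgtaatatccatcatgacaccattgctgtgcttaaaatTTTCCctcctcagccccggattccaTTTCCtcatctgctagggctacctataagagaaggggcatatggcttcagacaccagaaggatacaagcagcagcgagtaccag
Ccl6, chr11:83593038-83593337: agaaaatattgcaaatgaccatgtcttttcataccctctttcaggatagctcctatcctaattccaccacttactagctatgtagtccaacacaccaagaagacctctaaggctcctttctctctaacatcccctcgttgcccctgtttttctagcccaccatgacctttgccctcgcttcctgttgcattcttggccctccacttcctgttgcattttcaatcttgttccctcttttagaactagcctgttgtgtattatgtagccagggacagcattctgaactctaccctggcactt
Ccl9, chr11:83578587-83578886: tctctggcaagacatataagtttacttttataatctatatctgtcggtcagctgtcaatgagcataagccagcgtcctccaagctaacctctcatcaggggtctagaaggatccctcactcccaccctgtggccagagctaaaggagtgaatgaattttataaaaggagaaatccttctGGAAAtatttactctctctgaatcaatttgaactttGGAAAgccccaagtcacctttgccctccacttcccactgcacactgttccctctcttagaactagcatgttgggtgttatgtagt

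GGAAA was found at 2 places in the Ccl3 promoter (starting at bases 192 and 217), at 2 in that of Ccl9 (180 and 216) and at none in that of Ccl6, and 61.3% of 32851 promoters of this length hold it. The Ccl9 promoter also holds 1 AP-1 match (TGANTCA, base 198, held by 7.81% of promoters), 3 matches to TATAAA (13.6%) and 1 to the NF-κB motif (4.51%), which overlaps the second GGAAA. Neither of the other promoters holds these letters, and the C/EBP motif TTGCNNAA (10.8% of promoters) and the GATA motif AGATAA (11.2%) were found in none of the 3. Both strands were searched. By local alignment the promoters of Ccl6 and Ccl9 match over 74 columns with 59 identical bases (79.7%), whereas the best local alignments of the Ccl3 promoter with them span 12 and 11 columns.

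Library totals ran from 5516600 to 12733000 estimated counts. Levels are given as CPM, counts scaled to library size with edgeR's TMM factors, and differences as log2 fold changes from edgeR's quasi-likelihood test, called where the Benjamini-Hochberg adjusted p over all 14076 genes was under 0.05. The sum of 12 basophil markers, all of them detected, lay between 24900 and 33640 CPM in every library. Its ranges overlapped between genotypes in control and at 2 h. At 4 h it was 24900 to 25370 CPM in TTP-KO-labelled libraries and 26000 to 27560 CPM in WT libraries, without overlap. At that time 6 of the 12 basophil markers were lower in TTP-KO-labelled libraries and none higher by edgeR (8 lower and 0 higher by DESeq2, 9 and 1 at an unadjusted p under 0.05). Their median log2 difference was -0.15. In control 3 of the 12 were lower and 1 higher, and at 2 h 1 was lower and 1 higher by edgeR (3 lower and 1 higher by DESeq2 in both). Zfp36 itself had 224 ± 4.46, 564 ± 9.92 and 324 ± 23.9 CPM in the TTP-KO-labelled libraries (control OVA, TNP-OVA 2 h, TNP-OVA 4 h), against 237 ± 11.4, 448 ± 10.6 and 295 ± 22.7 CPM in the WT libraries (SD, n = 3 each). Its log2 fold change was 0.33 ± 0.05 at TNP-OVA 2 h, past the threshold (adjusted p = 0.000316 by edgeR), and missed it in control OVA at -0.08 ± 0.05 (adjusted p = 0.601) and at TNP-OVA 4 h with 0.14 ± 0.05 (adjusted p = 0.151). No fall of Zfp36 RNA accompanied the TTP-KO label, and these counts over the whole gene do not check the genotype labels. Markers of other cell types also moved with genotype, and the part of all these markers in the results below was not tested. The sum of 11 dendritic cell markers was 2558 to 2869 CPM in the 9 TTP-KO-labelled libraries and 3802 to 4280 CPM in the 9 WT libraries. Of these markers 5, 4 and 4 of the 7 tested were lower in control, 2 h and 4 h and none higher, while Flt3, Xcr1, Cd209a and Siglech, which define dendritic cell types, were too low to test. The class II genes on the list are also expressed by B cells and other cells. The sum of 8 mast cell markers was 123.7 to 139.7 CPM in TTP-KO-labelled and 191.8 to 228.5 CPM in WT libraries, with 2 of 6 tested lower in each condition, none higher, and the mast cell receptor gene Mrgprb1 without a count in any library. That of 15 neutrophil markers ran higher in the TTP-KO-labelled libraries of every condition (2944 to 3307, 3144 to 3491 and 2613 to 2914 CPM, against 2353 to 2488, 2075 to 2413 and 1774 to 1890 CPM in WT), as did that of 12 monocyte and macrophage markers (2203 to 2251, 2412 to 2592 and 2314 to 2496 CPM, against 2071 to 2130, 2101 to 2229 and 2022 to 2061 CPM). Higher in TTP-KO-labelled libraries were 5, 8 and 9 of the 15 neutrophil markers and 2, 4 and 6 of the 12 monocyte and macrophage markers in control, 2 h and 4 h, and 0, 0 and 1 and 1, 0 and 0 were lower. Of all tested genes 1.65%, 2.79% and 5.22% were called in control, 2 h and 4 h, and 1.24%, 1.88% and 3.4% were called lower. Called higher were 0.909% at 2 h and 1.83% at 4 h. Sums for eosinophil and platelet markers overlapped between genotypes in every condition. Of the 8 platelet markers none was called by edgeR in any condition. By DESeq2 0, 1 and 2 were lower in TTP-KO-labelled libraries in control, 2 h and 4 h, and none was higher. At an unadjusted p under 0.05 these were 0, 2 and 3 lower and none higher. In bulk RNA, fewer cells of a type and less RNA per cell cannot be told apart.

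Together the 5 genes took 1.58% ± 0.049 of a library's counts in TTP-KO-labelled control libraries and 1.67% ± 0.0175 in WT control libraries (SD, n = 3 each). After 2 h of TNP-OVA their share was 5.75% ± 0.0936 in TTP-KO-labelled and 4.89% ± 0.108 in WT libraries, and after 4 h it was 2.5% ± 0.081 and 2.72% ± 0.0786. Dividing by the length of a GENCODE vM21 transcript (532 to 3006 bases) allows levels of different genes to be set side by side, on the assumption that reads fall along the whole transcript, which the sources used here do not state. On that scale, in CPM per kilobase, Ccl4 and Ccl6 were the highest in control cells (4490 ± 171 and 4460 ± 186 in TTP-KO-labelled, 4601 ± 108 and 4861 ± 115 in WT). Ccl3 followed (2933 ± 182 and 2888 ± 99), then Ccl9 (796 ± 18 and 922 ± 22) and Ccl5 (189 ± 6 and 283 ± 37). In the TTP-KO-labelled control libraries Ccl4 and Ccl6 did not differ beyond their spread. After 2 h of antigen Ccl4 was the highest (41166 ± 1818 and 39667 ± 1744), with Ccl3 next (35707 ± 94 and 24017 ± 320) and then, well below, Ccl6 (4353 ± 91 and 4669 ± 116), Ccl9 (1275 ± 23 and 1475 ± 40) and Ccl5 (175 ± 19 and 210 ± 16). After 4 h Ccl3 and Ccl4 were within their spread of each other in TTP-KO-labelled libraries (11843 ± 856 and 11432 ± 545), while in WT libraries Ccl3 stood at 9471 ± 408 and Ccl4 at 13613 ± 468. 

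**Figure D1:**
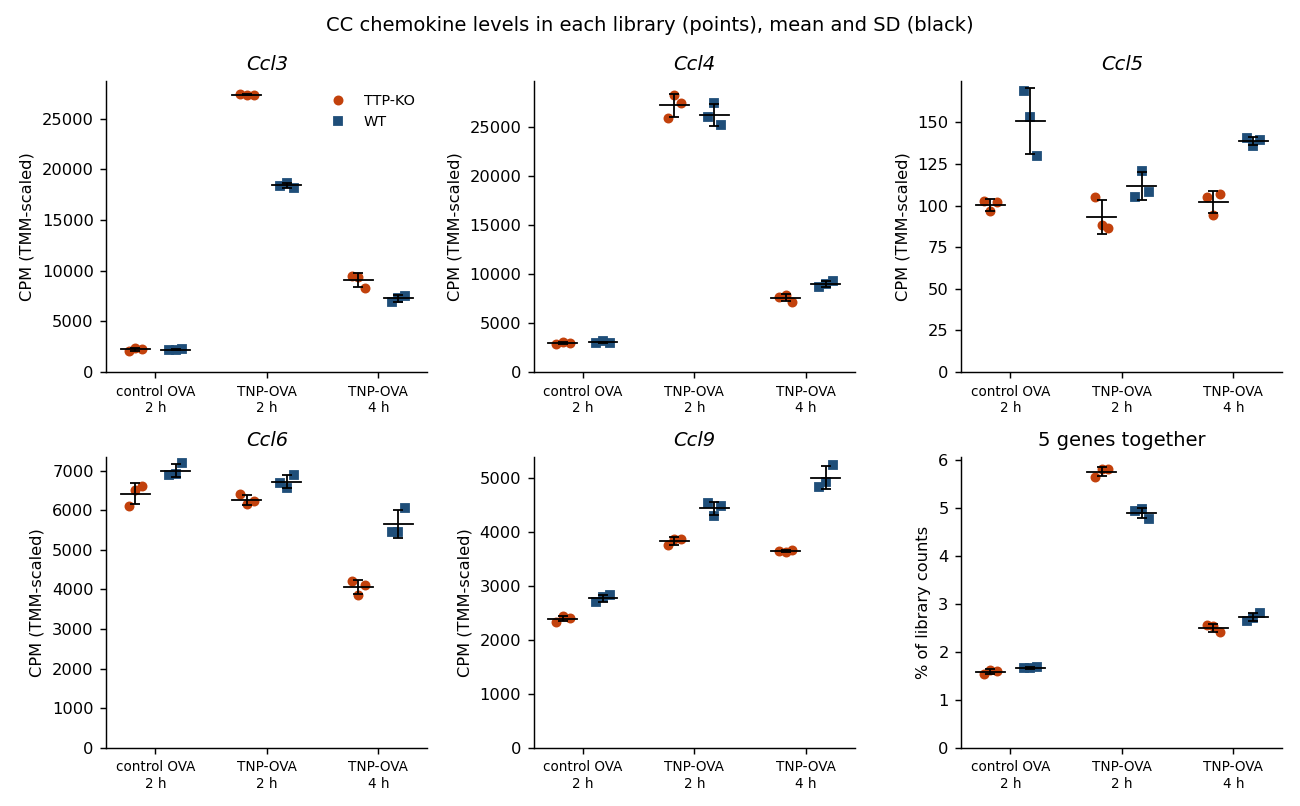
Level of each of the 5 chemokine genes in every library (CPM after TMM scaling, axes from 0) and their joint share of library counts (%), by condition, TTP-KO-labelled libraries in red left of WT libraries in blue; black bars are the mean and SD of 3 libraries. Ccl3 separates by genotype after antigen, near 27351 CPM against 18397 CPM at 2 h, whereas the points of Ccl5, Ccl6 and Ccl9 lie lower in TTP-KO-labelled libraries in every condition.

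Counted over the 5 genes, 2 differed between genotypes in control OVA, Ccl5 and Ccl9, both lower in TTP-KO-labelled libraries, where 1.65% of all tested genes were called and 1.24% were called lower. At 2 h 2 differed, Ccl3 higher and Ccl9 lower (2.79% of all genes called, 0.909% higher and 1.88% lower), and at 4 h all 5 did, Ccl3 higher and the other 4 lower (5.22% of all genes called, 1.83% higher and 3.4% lower). Groups did not overlap for 3 of 5 genes in control, 4 at 2 h and 5 at 4 h, against 17.5%, 18.5% and 25.1% of all genes. Over control, 3 of 5 changed at 2 h in TTP-KO-labelled libraries (34.5% of all genes called) and 4 in WT libraries (35.1%), and at 4 h 4 changed in TTP-KO-labelled libraries (35%) and 4 in WT libraries (38%). Between 2 h and 4 h 3 changed in TTP-KO-labelled libraries (30.8%) and all 5 in WT libraries (31.1%). These counts stand against a background in which change between conditions was common. Responses differed between genotypes for 1 of 5 genes at 2 h (0.0497% of all genes called), for 2 at 4 h (0.689%) and for 3 in the change from 2 h to 4 h (0.313%).

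Of the 5 genes, Ccl3 alone was higher in TTP-KO-labelled libraries, and only after antigen. In control OVA its levels were 2095, 2370 and 2276 CPM in TTP-KO-labelled libraries, against 2148, 2193 and 2296 CPM in WT libraries. After 2 h of TNP-OVA they were 27429, 27287 and 27338 CPM, against 18329, 18669 and 18194 CPM in WT libraries. After 4 h they were 9511, 9385 and 8318 CPM, against 6916, 7314 and 7533 CPM in WT libraries. The groups overlapped in control OVA and lay fully apart at 2 h and at 4 h, with every TTP-KO-labelled library above every WT library. In control OVA the log2 fold change of TTP-KO over WT was 0.02 ± 0.05 (SE; adjusted p = 0.912 by edgeR). It was 0.57 ± 0.05 at 2 h, a 1.49-fold difference (adjusted p = 1.37e-06), and 0.32 ± 0.05 at 4 h, a 1.25-fold difference (adjusted p = 0.000368).

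Antigen raised Ccl3 in both genotypes, and by more in TTP-KO-labelled libraries at 2 h. It rose 12.2-fold over control at 2 h in TTP-KO-labelled libraries (log2 3.61 ± 0.05, adjusted p = 1.75e-19 by edgeR) and 8.32-fold in WT libraries (3.06 ± 0.05, adjusted p = 1.25e-18). The difference between these responses was 0.55 ± 0.07 on the log2 scale (adjusted p = 0.00139), 1 of 7 genes called in that test. At 4 h Ccl3 was still 4.04-fold over control in TTP-KO-labelled libraries and 3.28-fold in WT libraries, and this difference of 0.30 ± 0.07 missed the threshold (adjusted p = 0.058). From 2 h to 4 h it fell by 1.59 ± 0.05 in TTP-KO-labelled libraries and by 1.34 ± 0.05 in WT libraries on the log2 scale, and these falls did not differ past the threshold (-0.25 ± 0.07, adjusted p = 0.186). The 2 h and the 4 h response of a genotype share their control libraries.

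The counts of Ccl3 are in part an allocation made by the authors' counting. Its estimated counts carry decimals in all 18 libraries, those of the other 4 genes in none. In all 18 libraries the counts of Ccl3 and of Gm53692 (ENSMUSG00000120024) add up to a whole number within 0.015. Gm53692 held between 1.36% and 5.36% of the sum, and less in TTP-KO-labelled than in WT libraries of each condition. Its part was 4.44% to 4.65% against 5.22% to 5.36% in control, 1.36% to 1.65% against 2.22% to 2.58% at 2 h, and 1.85% to 1.99% against 2.68% to 3.78% at 4 h. With the counts of Ccl3 and Gm53692 added together, a choice made after seeing the data, the log2 genotype differences of Ccl3 were 0.01, 0.56 (adjusted p = 1.08e-06 by edgeR) and 0.30 (adjusted p = 0.000472) in control, 2 h and 4 h.

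Ccl4 also rose with antigen but was not higher in TTP-KO-labelled libraries in any condition past the threshold, and it was lower there at 4 h. In control OVA its levels were 2869, 3088 and 2934 CPM in TTP-KO-labelled libraries, against 2997, 3119 and 2994 CPM in WT libraries. After 2 h they were 25866, 28227 and 27416 CPM, against 25971, 27422 and 25148 CPM in WT libraries. After 4 h they were 7675, 7822 and 7139 CPM, against 8667, 9003 and 9284 CPM in WT libraries. The groups overlapped in control and at 2 h, and at 4 h every TTP-KO-labelled library lay below every WT library. The log2 difference was -0.04 ± 0.04 in control OVA (adjusted p = 0.802 by edgeR), 0.05 ± 0.04 at 2 h (adjusted p = 0.598) and -0.25 ± 0.04 at 4 h (0.84-fold, adjusted p = 0.000293).

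Antigen raised Ccl4 at 2 h by 9.17-fold in TTP-KO-labelled libraries (log2 3.20 ± 0.04, adjusted p = 5.85e-24 by edgeR) and by 8.62-fold in WT libraries (3.11 ± 0.04, adjusted p = 7.71e-24). Between 2 h and 4 h it fell by 1.85 ± 0.04 in TTP-KO-labelled libraries and by 1.54 ± 0.04 in WT libraries on the log2 scale. This difference in the fall, -0.31 ± 0.06, was called (adjusted p = 0.0133). It was no longer called when any 1 of 6 libraries was left out: TTP-KO 2 h replicates 2 and 3 (adjusted p = 0.0784 and 0.0808), WT 2 h replicates 1 and 3 (0.0633 and 0.0822) or WT 4 h replicates 2 and 3 (0.0628 and 0.0739). The responses themselves did not differ past the threshold at 2 h (0.09 ± 0.06, adjusted p = 0.829) or at 4 h (-0.22 ± 0.06, adjusted p = 0.0955).

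**Figure D2:**
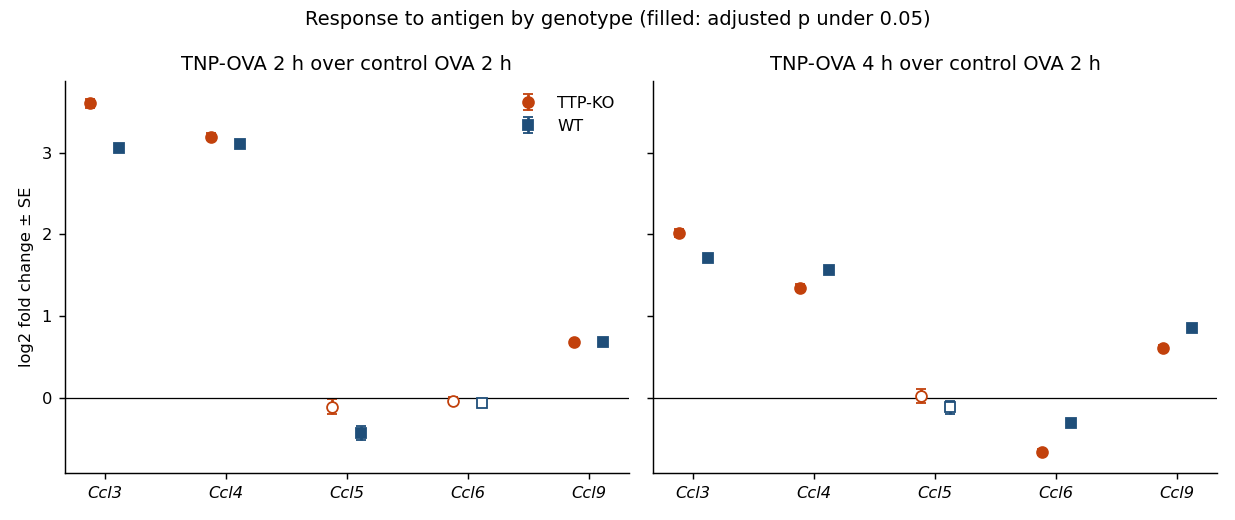
Log2 fold change of the 5 genes over control OVA after 2 h (left) and 4 h (right) of TNP-OVA in TTP-KO-labelled (red circles) and WT (blue squares) libraries, with SE bars that are smaller than most symbols; filled symbols passed an adjusted p of 0.05. At 2 h Ccl3 stands at 3.61 against 3.06 and Ccl4 at 3.20 against 3.11, and Ccl9 stands at 0.68 in both.

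Because Ccl3 and Ccl4 are counted in the same library, their ratio needs no scaling between libraries. In control OVA the ratio of Ccl3 to Ccl4 counts was 0.73, 0.767 and 0.776 in TTP-KO-labelled libraries, against 0.717, 0.703 and 0.767 in WT libraries. After 2 h it was 1.06, 0.967 and 0.997, against 0.706, 0.681 and 0.724 in WT libraries. After 4 h it was 1.24, 1.2 and 1.17, against 0.798, 0.812 and 0.811 in WT libraries. In control the groups overlapped, and at both antigen times every TTP-KO-labelled library exceeded every WT library. The log2 ratio differed by 0.06, 0.52 and 0.57 in control, 2 h and 4 h (exact permutation p = 0.2, 0.1 and 0.1, two-sided, where 0.1 is the smallest that 3 libraries against 3 can give). Within TTP-KO-labelled libraries the ratio was higher at 4 h than at 2 h in every library (exact permutation p = 0.1), as it was within WT libraries (p = 0.1 by the same exact test). Over the 27 comparisons of ratios that were computed, a raw p of 0.1 becomes 0.142 after Benjamini-Hochberg adjustment and 0.2 becomes 0.245 (exact permutation tests), so none passed 0.05.

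**Figure D3:**
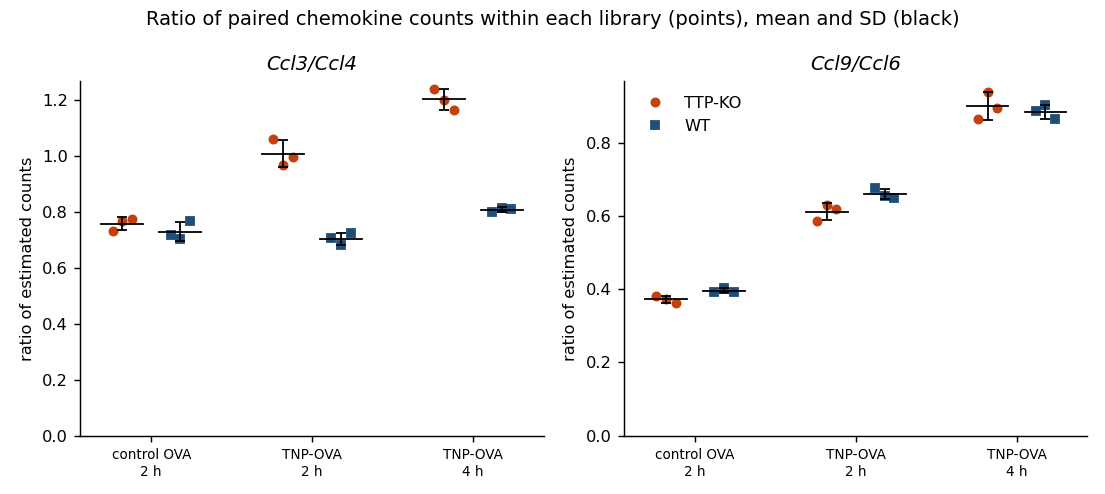
Ratio of Ccl3 to Ccl4 counts (left) and of Ccl9 to Ccl6 counts (right) in each library, axes from 0, TTP-KO-labelled in red left of WT in blue, with mean and SD of 3 libraries in black. The Ccl3 to Ccl4 ratio reaches 1.2 ± 0.0371 against 0.807 ± 0.00804 at 4 h, whereas the Ccl9 to Ccl6 ratio moves with condition in both genotypes.

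For Ccl5 every TTP-KO-labelled library lay below every WT library in each condition, and the difference was called in control OVA and at 4 h. In control OVA it had 103, 96.5 and 102 CPM in TTP-KO-labelled libraries, against 169, 153 and 130 CPM in WT libraries. After 2 h it had 105, 88.1 and 86.7 CPM, against 105.1, 121 and 108 CPM in WT libraries, and here the highest TTP-KO-labelled library (105.02 CPM) lay just under the lowest WT library. After 4 h it had 105.1, 94.6 and 107 CPM, against 141, 136 and 139.7 CPM in WT libraries. The log2 difference was -0.58 ± 0.08 in control OVA (adjusted p = 0.00029 by edgeR), -0.26 ± 0.09 at 2 h (0.836-fold, adjusted p = 0.128) and -0.44 ± 0.08 at 4 h (0.737-fold, adjusted p = 0.00165). The value at 2 h passed the threshold when TTP-KO 2 h replicate 1 (adjusted p = 0.0362) or WT control replicate 3 (adjusted p = 0.0394) was left out.

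With antigen, Ccl5 fell at 2 h in WT libraries and did not pass the threshold in TTP-KO-labelled libraries. In TTP-KO-labelled libraries it differed from control by -0.11 ± 0.09 at 2 h (adjusted p = 0.382 by edgeR) and 0.03 ± 0.08 at 4 h (adjusted p = 0.844) on the log2 scale. In WT libraries it fell by 0.43 ± 0.08 at 2 h (adjusted p = 0.000277), and at 4 h the difference from control was -0.12 ± 0.08 (adjusted p = 0.274; -0.22 and adjusted p = 0.0242 without WT control replicate 3). From 2 h to 4 h it rose by 0.31 ± 0.08 in WT libraries (adjusted p = 0.0058; 0.25 and adjusted p = 0.0539 without WT 2 h replicate 1). Responses did not differ between genotypes past the threshold (0.33 ± 0.12 at 2 h, adjusted p = 0.602). NK and T cells are known for Ccl5. Of 14 of their markers, 12 were too low to test, and their sum lay between 3.322 and 12.13 CPM in every library, higher after antigen in both genotypes. Between genotypes the sums overlapped in control and at 4 h. At 2 h the sum was 10.32 to 10.8 CPM in TTP-KO-labelled and 11.32 to 12.13 CPM in WT libraries. The part of these markers was not tested.

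Ccl6 had a lower CPM in every TTP-KO-labelled library than in any WT library of the same condition, and the difference was called at 4 h alone. In control OVA it had 6119, 6518 and 6628 CPM in TTP-KO-labelled libraries, against 6892, 6916 and 7190 CPM in WT libraries. After 2 h it had 6409, 6150 and 6248 CPM, against 6697, 6572 and 6902 CPM in WT libraries. After 4 h it had 4214, 3864 and 4107 CPM, against 5456, 5460 and 6067 CPM in WT libraries. The gap between the groups was widest at 4 h. The log2 difference was -0.12 ± 0.04 in control OVA (adjusted p = 0.114 by edgeR), -0.10 ± 0.04 at 2 h (adjusted p = 0.207) and -0.48 ± 0.04 at 4 h (0.718-fold, adjusted p = 5.54e-09).

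Compared with control OVA, Ccl6 did not change past the threshold at 2 h (-0.03 ± 0.04 in TTP-KO-labelled libraries, adjusted p = 0.547 by edgeR, and -0.06 ± 0.04 in WT libraries, adjusted p = 0.282). At 4 h it had fallen to 0.632-fold of control in TTP-KO-labelled libraries (adjusted p = 3.12e-13) and to 0.809-fold in WT libraries (adjusted p = 4.88e-07). The response at 4 h differed by -0.35 ± 0.06 between genotypes (adjusted p = 0.00123), and so did the change from 2 h to 4 h, by -0.38 ± 0.06 (adjusted p = 0.00115). Scaling by library totals alone, which moves the median of all genes by -0.336 in TTP-KO-labelled and by -0.325 in WT libraries between control and 2 h, put Ccl6 below control at 2 h in both genotypes (-0.37 and -0.38) and ended the call from 2 h to 4 h in WT libraries (-0.05, adjusted p = 0.3).

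Ccl9 was lower in TTP-KO-labelled libraries in all 3 conditions, each past the threshold, and rose with antigen in both genotypes. In control OVA it had 2334, 2437 and 2406 CPM in TTP-KO-labelled libraries, against 2700, 2788 and 2830 CPM in WT libraries. After 2 h it had 3751, 3875 and 3872 CPM, against 4528, 4299 and 4479 CPM in WT libraries. After 4 h it had 3640, 3630 and 3672 CPM, against 4840, 4926 and 5247 CPM in WT libraries. In each condition the highest TTP-KO-labelled library lay below the lowest WT library. The log2 difference was -0.21 ± 0.03 in control OVA (0.863-fold, adjusted p = 0.000236 by edgeR), -0.21 ± 0.03 at 2 h (0.864-fold, adjusted p = 0.000239) and -0.46 ± 0.03 at 4 h (0.729-fold, adjusted p = 1.52e-10).

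The rise of Ccl9 over control at 2 h was 0.68 ± 0.03 on the log2 scale in TTP-KO-labelled libraries (adjusted p = 3.57e-16 by edgeR) and 0.68 ± 0.03 in WT libraries (adjusted p = 3.74e-16), with a difference of 0.00 ± 0.05 (adjusted p = 1). By 4 h it stood at 1.52-fold of control in TTP-KO-labelled and 1.8-fold in WT libraries, and this difference of -0.24 ± 0.05 was called (adjusted p = 0.0078). From 2 h to 4 h it rose by 0.17 ± 0.03 in WT libraries (adjusted p = 0.00013), while in TTP-KO-labelled libraries the difference was -0.07 ± 0.03 (adjusted p = 0.102). The last value changed sign when libraries were scaled by their totals alone (0.13, adjusted p = 0.00127), a scaling that moves the median of all genes between these times by about 0.2. The difference between these changes, -0.25 ± 0.05, was called (adjusted p = 0.00992), but not without TTP-KO 2 h replicate 2 (adjusted p = 0.08), TTP-KO 2 h replicate 3 (0.0716) or WT 2 h replicate 2 (0.055).

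**Figure D4:**
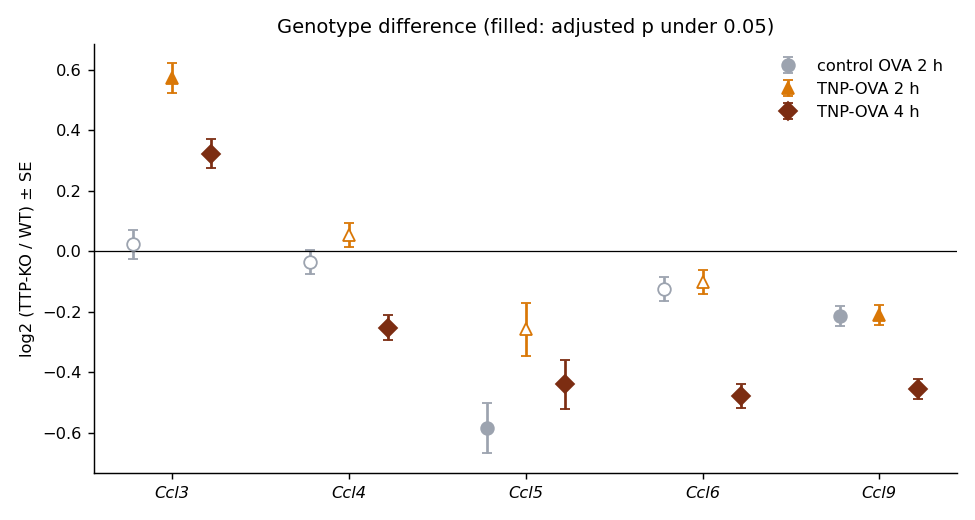
Log2 difference between TTP-KO-labelled and WT libraries with SE bars for the 5 genes in control OVA (grey circles), TNP-OVA 2 h (orange triangles) and TNP-OVA 4 h (brown diamonds); filled symbols passed an adjusted p of 0.05. At 4 h all 5 are filled, Ccl3 at 0.32 above the line at 0 and the other 4 between -0.25 and -0.48.

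Ccl6 and Ccl9 are neighbours whose levels shifted against each other between conditions in both genotypes. The ratio of Ccl9 to Ccl6 counts in control OVA was 0.381, 0.374 and 0.363 in TTP-KO-labelled libraries, against 0.392, 0.403 and 0.394 in WT libraries. After 2 h it was 0.585, 0.63 and 0.62, against 0.676, 0.654 and 0.649 in WT libraries, and after 4 h it was 0.864, 0.94 and 0.894, against 0.887, 0.902 and 0.865 in WT libraries. The genotypes lay apart in control and at 2 h (exact permutation p = 0.1 each) and overlapped at 4 h (exact permutation p = 0.7). The ratio at 4 h was 0.899 ± 0.0382 in TTP-KO-labelled and 0.885 ± 0.0187 in WT libraries.

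Of 16 other CC chemokine genes, 9 were abundant enough to test, and none of them was higher in TTP-KO-labelled libraries past the threshold by edgeR or by DESeq2 (1, 0 and 1 at an unadjusted p under 0.05 in control, 2 h and 4 h). In control OVA 1 was lower, at 2 h 2 and at 4 h 6, beside 1.24%, 1.88% and 3.4% of all tested genes. The median log2 differences were -0.05, -0.33 and -0.65, beside medians of all tested genes of -0.000995, 0.004011 and 0.00742. Ccl22, a ligand of Ccr4 known from dendritic cells, had 2.04 ± 0.567, 2.54 ± 0.565 and 4.58 ± 0.825 CPM in TTP-KO-labelled libraries in control, 2 h and 4 h, against 5.88 ± 2.27, 5.55 ± 1.16 and 21.3 ± 1.29 CPM in WT libraries (SD, n = 3 each). It was lower in all 3 conditions (log2 -1.53 ± 0.28, -1.13 ± 0.28 and -2.20 ± 0.22, adjusted p = 0.00183, 0.0239 and 7.52e-08 by edgeR). Ccl24, an eosinophil attractant, reached 24.5 ± 4.39 CPM at 4 h in TTP-KO-labelled libraries, against 48.3 ± 2.89 CPM in WT libraries (-0.98 ± 0.15, adjusted p = 5.73e-05). Ccl17, which also binds Ccr4, differed by -0.95 ± 0.22 (adjusted p = 0.00694) and Ccl1, a ligand of Ccr8, by -0.88 ± 0.18 (adjusted p = 0.00171) at that time. The monocyte attractant Ccl2 was lower at 2 h (-0.52 ± 0.12, adjusted p = 0.00961), at 25.9 ± 0.655 CPM against 37 ± 7.26 CPM in WT libraries. Leaving out 1 library ended the call of Ccl22 at 2 h (WT 2 h replicate 3, TTP-KO 2 h replicate 1 or 3; adjusted p up to 0.145 by edgeR). It did the same for Ccl2 at 2 h (WT 2 h replicate 3, 0.11) and Ccl17 at 4 h (WT 4 h replicate 3 or TTP-KO 4 h replicate 2, up to 0.0721). The sums of dendritic cell and mast cell markers given above were lower in the same libraries, and those of neutrophil and of monocyte and macrophage markers were higher. The part of these markers in the chemokine differences was not tested.

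With antigen, 5 of the 9 rose at 2 h in TTP-KO-labelled libraries (34.5% of all genes called) and 5 in WT libraries (35.1%), and none fell (1 and 0 at an unadjusted p under 0.05, none by DESeq2). Scaled by library totals alone, 3 rose and 1 fell in TTP-KO-labelled libraries, and 4 rose and 1 fell in WT libraries. Ccl7, a monocyte attractant, rose by 2.32 ± 0.14 in TTP-KO-labelled libraries (adjusted p = 5.04e-14 by edgeR) and by 2.37 ± 0.14 in WT libraries (adjusted p = 1.48e-14), to 39.2 ± 6.03 and 46.2 ± 7 CPM. From 2 h to 4 h, when Ccl3 and Ccl4 fell, 5 of the 9 rose in TTP-KO-labelled libraries (30.8% of all genes called) and 4 in WT libraries (31.1%). Ccl24 rose between these times by 1.84 ± 0.19 in TTP-KO-labelled libraries (adjusted p = 1.4e-08) and by 3.05 ± 0.18 in WT libraries (adjusted p = 6.33e-13), and Ccl1 by 1.13 ± 0.21 and 1.61 ± 0.19 (adjusted p = 8.69e-05 and 1.28e-07). None of the 9 differed past the threshold by edgeR or DESeq2 in its response at 2 h, its response at 4 h or its change between them (0, 2 and 2 at an unadjusted p under 0.05). Ccl24 came nearest, at -1.21 ± 0.27 for the change from 2 h to 4 h (adjusted p = 0.0514 by edgeR). Its response at 4 h differed by -1.17 ± 0.30 (adjusted p = 0.0734). With library totals alone, 1 of the 9 was called for the change from 2 h to 4 h, with a negative difference (TTP-KO minus WT).

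**Figure D5:**
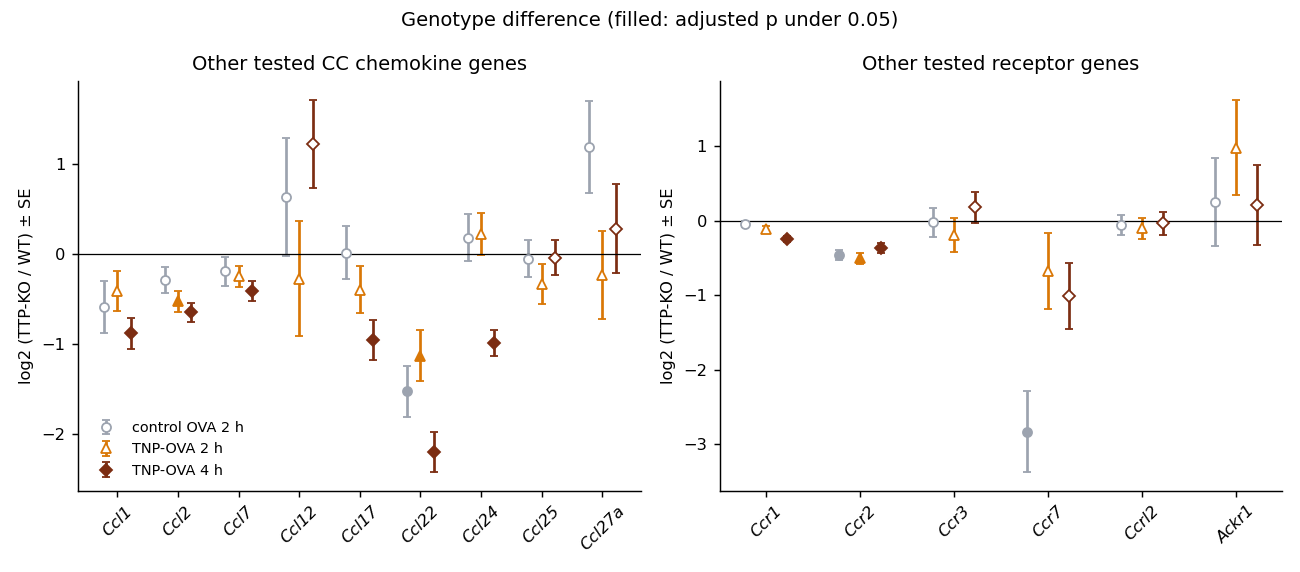
Log2 difference between TTP-KO-labelled and WT libraries with SE bars for the 9 other tested CC chemokine genes (left) and 6 tested receptor genes (right), by condition (grey circles, control OVA 2 h; orange triangles, TNP-OVA 2 h; brown diamonds, TNP-OVA 4 h); filled symbols passed an adjusted p of 0.05. Ccl22 (left) and Ccr2 (right) are filled below 0 in all 3 conditions.

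Of 15 receptor and scavenging receptor genes, 6 were abundant enough to test, and Ackr2, which clears CC chemokines, had no count in any library. Ccr1, the receptor of Ccl3, Ccl5, Ccl6 and Ccl9, had 393 ± 10.1, 924 ± 45.2 and 630.1 ± 27.8 CPM in TTP-KO-labelled libraries in control, 2 h and 4 h, against 405 ± 10.8, 1001 ± 19.1 and 744 ± 30.1 CPM in WT libraries. It rose with antigen at 2 h by 1.24 ± 0.04 in TTP-KO-labelled libraries and by 1.31 ± 0.04 in WT libraries on the log2 scale (adjusted p = 1.83e-19 and 4.73e-20 by edgeR), and at 4 h it was lower in TTP-KO-labelled libraries (log2 -0.24 ± 0.04, adjusted p = 0.000403). Ccr2, the receptor of Ccl2 and Ccl7, was lower in TTP-KO-labelled libraries in all 3 conditions (-0.45, -0.51 and -0.37, adjusted p = 0.000186, 3.94e-05 and 0.000526). Ccr7, a receptor of dendritic cells and T cells that is also on the dendritic cell list, was lower in control OVA (-2.83 ± 0.54, adjusted p = 0.00319), at 0.343 ± 0.0546 CPM against 2.52 ± 0.746 CPM in WT libraries. In control, 2 h and 4 h, 2, 1 and 2 of the 6 genes were thus lower (1.24%, 1.88% and 3.4% of all tested genes), with medians of -0.05, -0.15 and -0.14 beside -0.000995, 0.004011 and 0.00742 over all tested genes.

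Regulators of chemokine transcription changed in both directions with antigen. Of 21 genes of the NFAT and NF-κB pathways, 9 rose and 5 fell at 2 h in TTP-KO-labelled libraries (34.5% of all genes called), and 8 rose and 4 fell in WT libraries (35.1%). Their medians were 0.14 and 0.11, beside -0.03 and -0.05 over all genes. Scaled by library totals alone, the balance turned round, with 6 higher and 11 lower in TTP-KO-labelled libraries and 4 higher and 12 lower in WT libraries. The atypical IκB protein gene Nfkbid rose by 1.78 ± 0.07 in TTP-KO-labelled libraries (adjusted p = 1.1e-17 by edgeR) and by 1.75 ± 0.07 in WT libraries (adjusted p = 1.24e-17), and the calcium-activated factor gene Nfatc1 by 1.10 ± 0.06 and 1.08 ± 0.06 (adjusted p = 7.28e-15 and 1.12e-14). Both fell again from 2 h to 4 h, Nfkbid by 1.20 ± 0.07 in TTP-KO-labelled and 1.26 ± 0.07 in WT libraries. Between genotypes 1 of 21 was lower in TTP-KO-labelled control libraries (Tnfaip3, which limits NF-κB signalling, -0.25 ± 0.06, adjusted p = 0.0399), none differed at 2 h by edgeR (7 at an unadjusted p under 0.05, 1 by DESeq2, Nfkb2), and 3 were lower at 4 h (Nfatc2 at -0.56 ± 0.14, adjusted p = 0.0146, Rela at -0.23 ± 0.06, adjusted p = 0.0172, and Nfkbie at -0.22 ± 0.06, adjusted p = 0.0433). The medians were -0.09, -0.09 and -0.06, and 1.24%, 1.88% and 3.4% of all tested genes were called lower. These 4 calls depended on the settings. That of Tnfaip3 was lost with library totals alone (adjusted p = 0.0754 by edgeR), with the compared groups alone (0.098) and without any 1 of 11 of the 18 libraries (up to 0.18). The call of Nfkbie was lost with library totals alone (0.0873), with no expression filter (0.064), with the replicate block (0.054) and without any 1 of 8 libraries (up to 0.158). Leaving out 1 library ended the call of Nfatc2 for 4 libraries (up to 0.145) and that of Rela for 3 (up to 0.107). All of these were 4 h libraries.

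Among 12 tested genes for proteins that bind AU-rich or related elements, Zfp36 itself was called between genotypes at 2 h and no other gene was called in any condition by edgeR or DESeq2 (2, 5 and 6 genes had an unadjusted p under 0.05 in control, 2 h and 4 h). Of all tested genes 1.65%, 2.79% and 5.22% were called in these conditions. With antigen at 2 h, 8 of 12 rose and 1 fell in each genotype, where 34.5% of all genes were called in TTP-KO-labelled and 35.1% in WT libraries. With library totals alone 4 rose and 4 fell in TTP-KO-labelled libraries and 4 rose and 5 fell in WT libraries. Zfp36l1, a paralogue of Zfp36, rose by 1.64 ± 0.05 in TTP-KO-labelled libraries (adjusted p = 6.51e-20 by edgeR), to 214 ± 3.31 CPM, and by 1.32 ± 0.05 in WT libraries (adjusted p = 7.91e-18), to 194.5 ± 4.72 CPM. The response of Zfp36l1 differed between genotypes at 4 h (0.31 ± 0.08, adjusted p = 0.0499 by edgeR) and that of Zfp36 at 2 h (0.41 ± 0.08, adjusted p = 0.0249). DESeq2 called a positive difference in response (TTP-KO minus WT) for 2 of the 12 at 2 h and 1 at 4 h, and no negative one. At an unadjusted p under 0.05 edgeR gave 3 and 4 positive differences. Of all tested genes edgeR called 0.0497% and 0.689% in these responses. The Zfp36l1 call was lost with library totals alone (adjusted p = 0.0641 by edgeR), with no expression filter (0.0904), with the compared groups alone (0.0746) and without any 1 of 17 of the 18 libraries (up to 0.166). The Zfp36 call was lost without any 1 of 10 libraries (up to 0.117).

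Of 11 genes for the storage and trimming of CC chemokines, 5 were called between genotypes in at least 1 condition, as were 7.32% of all tested genes. Srgn encodes the core protein of the granule proteoglycan that holds chemokines. It had 2881 ± 47.6, 6877 ± 82.9 and 5838 ± 26.9 CPM in TTP-KO-labelled libraries in control, 2 h and 4 h, against 3178 ± 53.2, 7198 ± 106 and 6726 ± 151 CPM in WT libraries, and was lower in control (-0.14 ± 0.03, adjusted p = 0.00367 by edgeR) and at 4 h (-0.20 ± 0.03, adjusted p = 9.27e-06). At 2 h no gene of this list was lower by edgeR (2 at an unadjusted p under 0.05), whereas DESeq2 called Srgn (-0.08, adjusted p = 0.0111) and Mmp12 (-0.22, adjusted p = 0.047) lower. The protease genes called higher in TTP-KO-labelled libraries were Mmp9 in control (0.53 ± 0.10, adjusted p = 0.00418), Ctsg at 2 h (0.25 ± 0.04, adjusted p = 0.000319), and Prtn3, Mmp9 and Ctsg at 4 h (0.58 ± 0.11, 0.53 ± 0.11 and 0.14 ± 0.04, adjusted p = 0.000761, 0.00186 and 0.0353). The call of Ctsg at 4 h was lost with RLE scaling (adjusted p = 0.0598 by edgeR), with no expression filter (0.204) and without any 1 of 5 libraries (up to 0.185). Mmp9, Prtn3 and Ctsg encode proteases stored in neutrophil granules, Prtn3 and Ctsg are also on the list of neutrophil markers, and the sum of those markers was higher in the same libraries; its part was not tested. The macrophage protease gene Mmp12 was lower in TTP-KO-labelled control libraries (-0.43 ± 0.07, adjusted p = 0.000436). Medians of the list were 0.06, 0.03 and 0.05 in control, 2 h and 4 h.

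The genes most like each chemokine were found as those with the smallest root mean square (RMS) difference in log2 CPM over the 18 libraries, each gene centred on its own mean, among 9757 candidates. For Ccl4 it was Plk3, a stress-responsive kinase gene, at 0.0783 log2 units, where Ccl4 itself has an SD of 1.33 over the libraries. For Ccl3 the nearest were Aqp3, a water and glycerol channel gene (0.191), and the cytokine genes Il6 (0.198) and Il4 (0.202), with an SD of 1.42 for Ccl3. Ccl3 and Ccl4 lay 0.282 apart. Plk3 had 197 ± 4.05, 1851 ± 89.5 and 501 ± 46.2 CPM in TTP-KO-labelled libraries in control, 2 h and 4 h, against 191 ± 11.5, 1631 ± 16.7 and 539 ± 21.2 CPM in WT libraries. Il4, the type 2 cytokine of basophils, had 264 ± 15.5, 2554 ± 143 and 1225 ± 66 CPM, against 265 ± 9.39, 2531 ± 280 and 785 ± 40.4 CPM in WT libraries. For Ccl9 the nearest were Fndc3a (0.0637), Lfng (0.0873) and the aminopeptidase gene Anpep (0.102), with an SD of 0.38 for Ccl9, and those of Ccl6 included Use1 (0.0945) and Ripor2 (0.12), with an SD of 0.274. For Ccl5 the nearest, Gpatch8 (0.16), Elovl7 (0.164) and Dnajc10 (0.166), were closer to its own SD of 0.278, so no gene followed it tightly. Anpep stood at 132 ± 6.67, 185 ± 7.49 and 189 ± 1.84 CPM in TTP-KO-labelled libraries, against 152.5 ± 5.96, 244 ± 7.92 and 236 ± 18.2 CPM in WT libraries.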

How the data were processed

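Bulk polyA RNA was sequenced from 18 libraries in 6 groups of 3. The authors deposited estimated counts per gene, with decimals and without normalization, of the kind RSEM writes. Per the submitters' processing notes, the genome build was GRCm39 and the tools included RSEM 1.3.1, STAR 2.7.10a, cutadapt 3.5 and R (4.4.0 and 4.4.1), with no role stated for any. The annotation release and the strand setting are not given in the sources used here, so antisense or overlapping genes could share reads. The table calls its control columns unstimulated; they were taken as the samples labelled control OVA. Replicates differed by more than sampling noise in every pair (2.955 to 6.774 chi-square units per degree of freedom).

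Estimated counts were rounded to whole numbers. In edgeR 4.0.16 under R 4.3.3, filterByExpr kept 14076 genes with 99.79% of counts (23517 genes had none), library sizes were scaled by TMM (trimmed means of M values), and the robust quasi-likelihood model was fitted with a mean per group (12 residual degrees of freedom, biological coefficient of variation 0.09048) and 12 contrasts. Standard errors are the log2 fold change over the square root of F, and p-values were adjusted over all 14076 genes. On simulated counts of the control genotype comparison over 14076 genes, edgeR recovered 52 of 100 genes changed 1.5-fold and 93 of 100 changed 2-fold, with 6 others called, and DESeq2 1.42.0 recovered 51 and 93, with 11 others. The changed genes were drawn from those with an average log2 CPM of at least 2, so recovery of lower genes was not measured.

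The 5 genes, the lists, the tests and the alternatives were chosen with earlier results of these data known. Besides the 5 genes, up to 4 members of a list, those called with the largest fold changes, are named per comparison, or the smallest p where none passed, with genes that a sentence follows into other conditions. The 3 genes most like each chemokine were sought where the mean log2 CPM reached 2 (prior count 2). Promoters are from RefSeq (GRCm38.p6) and 3′ UTRs from GENCODE vM21, an older build than that of the counts, and serve for sequence alone. Some genes and a sequence that these rules would name are not reported here, and the receptor list was shortened for this reason after its values were seen.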

Additional observations from a re-analysis of the deposited data

Results flagged for a closer look

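In 6 cases the change of a chemokine gene between 2 conditions differed between genotypes past the threshold, by the interaction term of edgeR's fit. All differences are given on the log2 scale as TTP-KO minus WT.

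The rise of Ccl3 over control at 2 h was larger by 0.5497 in libraries labelled TTP-KO (adjusted p = 0.00139), and this held without any 1 of the 18 libraries. Over control at 4 h, Ccl6 differed by -0.3547 (adjusted p = 0.00123) and Ccl9 by -0.2433 (adjusted p = 0.0078): Ccl6 had fallen further, and Ccl9 had risen less, in TTP-KO-labelled libraries. Between 2 h and 4 h Ccl4 differed by -0.3054 (adjusted p = 0.0133), Ccl6 by -0.3779 (adjusted p = 0.00115) and Ccl9 by -0.2455 (adjusted p = 0.00992). The differences at 4 h over control and at 4 h over 2 h use the same 4 h libraries and are not independent, and control OVA was sampled at 2 h alone. The Ccl4 value and the last Ccl9 value each depend on single libraries, as given in the report, whereas both Ccl6 values and the Ccl3 value kept their call without each library in turn.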

How the results depend on the processing

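For each of 60 member results (5 genes in 12 contrasts) 7 alternatives and the removal of each of 18 libraries were computed. Values below are log2. Adding the counts of Ccl3 and Gm53692 together, an alternative chosen after seeing the data, changed no call. Scaling by library totals alone turned the change of Ccl9 from 2 h to 4 h in TTP-KO-labelled libraries round to 0.1306, ended the call of Ccl6 for the same times in WT libraries (-0.04886) and brought 7 results past the threshold: Ccl6 at 2 h over control (-0.3714 in TTP-KO-labelled, -0.3831 in WT libraries), Ccl5 at 2 h over control in TTP-KO-labelled libraries (-0.4428), Ccl5 at 4 h over control in WT libraries (-0.2437), Ccl5 from 2 h to 4 h in TTP-KO-labelled libraries (0.3346), and the genotype difference in the 4 h response of Ccl3 (0.2902) and Ccl4 (-0.2264). That scaling moves the median of all genes by -0.336 to 0.202 in the contrasts between conditions, so calls of Ccl5, Ccl6 and Ccl9 between conditions are relative to it. The fit with no expression filter brought past the threshold the genotype difference of Ccl5 at 2 h (-0.2566), the 4 h response differences of Ccl3 (0.2913) and Ccl4 (-0.2253) and the difference in the change from 2 h to 4 h of Ccl3 (-0.2584). DESeq2 did so for Ccl9 from 2 h to 4 h in TTP-KO-labelled libraries (-0.08831), the same 4 h response differences (0.2978 and -0.2189) and the Ccl3 change (-0.2468). RLE scaling (-0.08946) and a fit of the compared groups alone (-0.08096) also called Ccl9 from 2 h to 4 h in TTP-KO-labelled libraries. With the replicate number as a block, the 4 h response difference of Ccl4 was called (-0.2167, adjusted p = 0.0202), and no other of the 60 calls changed. Same-numbered libraries deviated together (correlation over 0.1 in every pair) in the control genotype comparison alone (0.33, 0.129 and 0.103), and the labels do not say that a number marks a shared animal or day. The causes were not tested.

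Without each library in turn, 1065 values kept their side of the threshold, 5 passed it and 10 lost it. These belong to 6 results: Ccl5 between genotypes at 2 h (-0.3511 to -0.1965), Ccl5 in WT libraries at 4 h over control (-0.2178 to -0.02275) and over 2 h (0.2475 to 0.3728), the 4 h response difference of Ccl3 (0.2489 to 0.3582, called without TTP-KO control replicate 2 or TTP-KO 4 h replicate 3), and the differences in the change from 2 h to 4 h of Ccl4 (-0.3405 to -0.2625) and Ccl9 (-0.2693 to -0.2105).

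Counts of all genes called, which give the background, moved by over 1.5 times as follows. Between genotypes in control, 232 became 399 with no filter, 149 with the compared groups alone and 145 without TTP-KO control replicate 3. At 2 h 393 became 259 without TTP-KO 2 h replicate 1 and 228 without WT 2 h replicate 3. At 4 h 735 became 1130 with the compared groups alone, 484 without TTP-KO 4 h replicate 3 and 466 without WT 4 h replicate 2. At 2 h over control, scaling by totals gave 7676 in TTP-KO-labelled libraries (4852 before) and 7696 in WT libraries (4944 before). For the interactions, 7, 97 and 44 became 55, 259 and 134 with no filter and 23, 208 and 131 by DESeq2, the first also 11 with the compared groups alone. Without 1 library they fell as low as 4 (without TTP-KO control replicate 2, TTP-KO 2 h replicate 1 or 3), 46 (without TTP-KO 4 h replicate 2) and 25 (without TTP-KO 2 h replicate 3).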
